A study of Drosophila melanogaster with 12 samples.

Results

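Poly(A) sites on the 5 heterochromatic scaffolds of the BDGP5 genome build, chr2LHet, chr3LHet, chr3RHet, chrXHet and chrYHet, numbered 501 of the 46034 nuclear sites in the study. A poly(A) site is the place where a transcript is cut and given its poly(A) tail. Read positions on these scaffolds that lay within 24 nt of the next on the same strand were joined into a site, named by its most-read position, and a site needed at least 10 reads over all 12 libraries. The scaffolds held 25 sites on chr2LHet, 218 on chr3LHet, 156 on chr3RHet, 82 on chrXHet and 20 on chrYHet.

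The study used 3'READS and 3'READS+, which purify tail-bearing pieces of RNA and read the genomic position at which the tail begins. Wild-type flies were of strain w1118, and mutant flies, of strain RpII215, carried the C4 allele of RNA Pol II 215 (the largest subunit of RNA polymerase II). Heads and bodies of adult flies were profiled in 12 libraries, 4 for each wild-type tissue and 2 for each mutant tissue, and the flies' sex and age are not stated in those labels. The labels do not say whether replicates came from separate groups of flies, and a p-value here covers just the variation among libraries, part of which may be technical. The 2 strains may also differ elsewhere in the genome, which cannot be told apart from the allele.

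Heterochromatin is the compact, repeat-rich chromatin around centromeres and along the Y chromosome. It holds few genes for its length, and many of them sit among copies of transposable elements and satellite repeats. The fly Y chromosome is carried by males, and its best known genes act in sperm formation in the testis, an organ of the abdomen and therefore of the body sample. The C4 allele is known for a polymerase that elongates slowly, and elongation rate is one of the influences on which poly(A) site is used. The sources used here do not annotate these scaffolds at this build, so sites are given by position and no gene is named for them.

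The libraries held 2219693 to 9062730 reads, of which 1823944 to 7071544 were nuclear. The member sites took 750596 reads, 99.1% of all reads on these scaffolds. A further 3693 sites fell under the minimum and shared 7174 reads, with 40 sites at 9 reads just outside the minimum and 35 at 10 reads just inside it. The libraries came in 2 far-apart ranges of sample numbers, called here accession block 1 (wild-type replicates 1 and 2 of both tissues) and block 2 (every mutant library, with wild-type replicates 3 and 4). Member sites took 0.191% to 0.472% of nuclear reads in block 1 and 1.11% to 1.76% in block 2, without overlap. The labels do not tie a library to either of the 2 protocols, and block is only a name for these accession ranges. Values are therefore given library by library and within each block.

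Photoreceptor, accessory gland and male germline markers on chromosome arm 2L fitted the tissue labels, while the muscle markers were mixed. Their levels are given in RPM, reads scaled to 1000000 nuclear reads in each library. The 4 photoreceptor genes summed to 4702 to 15217 in heads and 4.61 to 984 in bodies, the highest bodies being wild-type replicates 1 and 2 at 604 and 984. The 5 genes of the male accessory gland, which makes seminal fluid, summed to 1040 to 1684 RPM in bodies and 3.54 to 39.7 in heads. Male germline genes (3 of 5 listed could be used) summed to 42.8 to 135 RPM in bodies and 2.07 to 9.19 in heads. The eggshell genes of the ovary (5 of 6 usable) were at or near 0 in bodies, at 0 to 0.614 RPM, and reached 7.71 RPM in 1 head library. Muscle genes (2 of 3 usable) summed to 134.6 to 1033 RPM in wild-type bodies, 26.2 to 60.1 in mutant bodies and 215 to 572 in heads. The 2 genes went opposite ways in wild type. Mhc was at 91.3 to 991 RPM in bodies and 36.2 to 124 in heads, with overlap. TpnC25D was at 41.8 to 60.4 RPM in bodies and 210 to 527 in heads.

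The sites were unevenly used. Members had a median of 29 pooled reads, against 47 at other nuclear sites, and the part of this in the next comparisons was not tested. Their median width was 14 nt, against 26 nt, and 18.0% of them, against 8.68%, rested on a single position. A single position held a median of 79.5% of a member's reads, against 66% elsewhere. On chrXHet these ran the other way, with a median width of 30.5 nt and a median of 54.4% at a single position. Only 39 members (7.78%) were read in all 12 libraries, against 22.1% of other nuclear sites. In total, 74 members had no read in any head library and 7 had none in any body library, 14.8% and 1.40%, against 11.7% and 1.66% of other sites. The most-read 5 sites of a scaffold took 93.6% of member reads on chr2LHet, 92.7% on chr3LHet, 68.9% on chr3RHet, 91.7% on chrXHet and 82.6% on chrYHet.

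**Figure D1:**
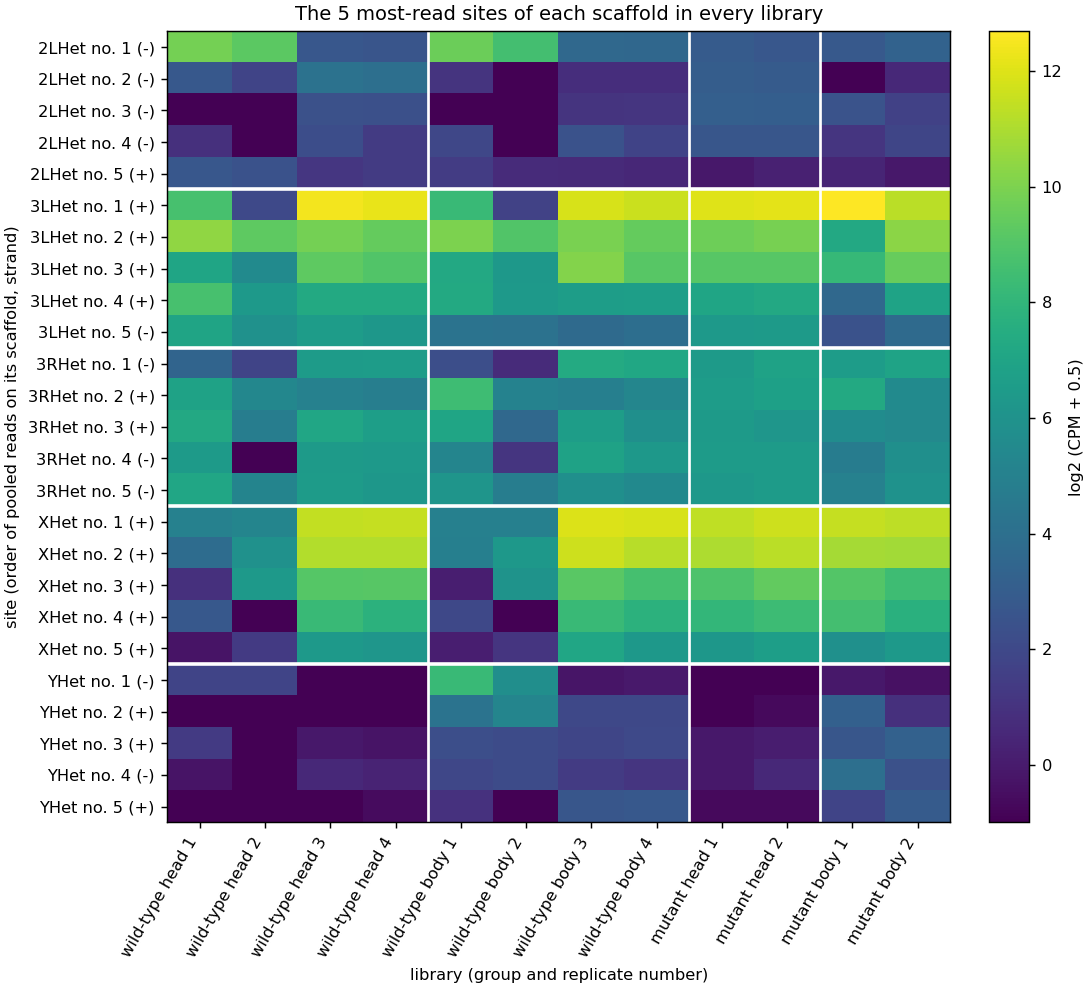
Level of the 5 most-read sites of each scaffold (rows, in order of pooled reads, with strand) in each of the 12 libraries (columns), as log2 of TMM-scaled CPM plus 0.5. The first site of chr2LHet is bright in wild-type replicates 1 and 2 alone, while the leading sites of chrXHet are bright in the 8 libraries of block 2.

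Summed over sites, the Y scaffold was the only one of the 5 whose wild-type head and body libraries did not overlap. In RPM, chrYHet stood at 6.0, 3.24, 7.12 and 6.62 in wild-type heads 1 to 4 and at 253, 101, 18.3 and 20.4 in wild-type bodies 1 to 4. Every body library was above every head library, and the fold was 9.36 (log2 difference of heads minus bodies −3.23; exact permutation test, two-sided, p = 0.0286, the smallest that 4 against 4 allows; adjusted p = 0.429 over 15 comparisons). The difference did not pass the adjustment. It was −5.03 within block 1 and −1.43 within block 2, where 2 libraries against 2 allow no p below 1 in 3. With the libraries paired by replicate number, the exact sign-flip permutation p was 0.125, the smallest for 4 pairs. It was also 0.125 on chr2LHet, chr3LHet and chrXHet, where each head was above the body of its number, and 0.25 on chr3RHet.

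The 4 other scaffolds overlapped between heads and bodies. On chr3LHet the wild-type heads were at 3125, 1419, 9036 and 8507 RPM and the bodies at 1519, 907, 5535 and 4503 (exact permutation p = 0.371). On chrXHet the heads were at 261, 462, 7679 and 8307 and the bodies at 256, 288, 7666 and 6695 (exact permutation p = 0.600). On both, the 4 libraries of block 2 were above the 4 of block 1. On chr3LHet this rested on the most-read site: without it the heads were at 2763, 1415, 2580 and 2384 RPM and the bodies at 1288, 904, 2223 and 1557, and the blocks overlapped. On chr3RHet the heads were at 525, 224, 726 and 703 and the bodies at 539, 212, 571 and 514 (exact permutation p = 0.543). The chr2LHet totals ran the other way between blocks, with heads at 799.9, 671, 53.0 and 53.4 and bodies at 586, 399, 24.4 and 23.7 (exact permutation p = 0.514). Without its most-read site, chr2LHet was higher in all 4 heads, at 21.1 to 46.1, than in the bodies, at 3.29 to 14.1 RPM, a log2 difference of 1.72 (exact permutation p = 0.0286, not adjusted).

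Between genotypes, within block 2, the totals were compared by an exact permutation test, whose smallest p for 2 libraries against 2 is 1 in 3, so it can make no call. The Y scaffold was at 12.7 and 10.8 RPM in mutant heads, above both wild-type heads of the block, a log2 difference of 0.73. In mutant bodies it was at 46.7 and 33.8, above both wild-type bodies of the block, a difference of 1.02. On chrXHet the mutant bodies, at 4860 and 5420, were below the wild-type bodies of the block, a log2 difference of −0.48. Mutant heads of chr3LHet (7633 and 7324), and of chr2LHet (50.5 and 45.1), were below the wild-type heads of the block, with log2 differences of −0.23 and −0.15. Without its most-read site the chr3LHet difference was −0.023, and the mutant heads, at 2473 and 2408 RPM, lay between the wild-type heads. Mutant heads of chr3RHet, at 790 and 750, were above them by 0.11. All 15 adjusted p-values were 0.429 or more (exact permutation tests).

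**Figure D2:**
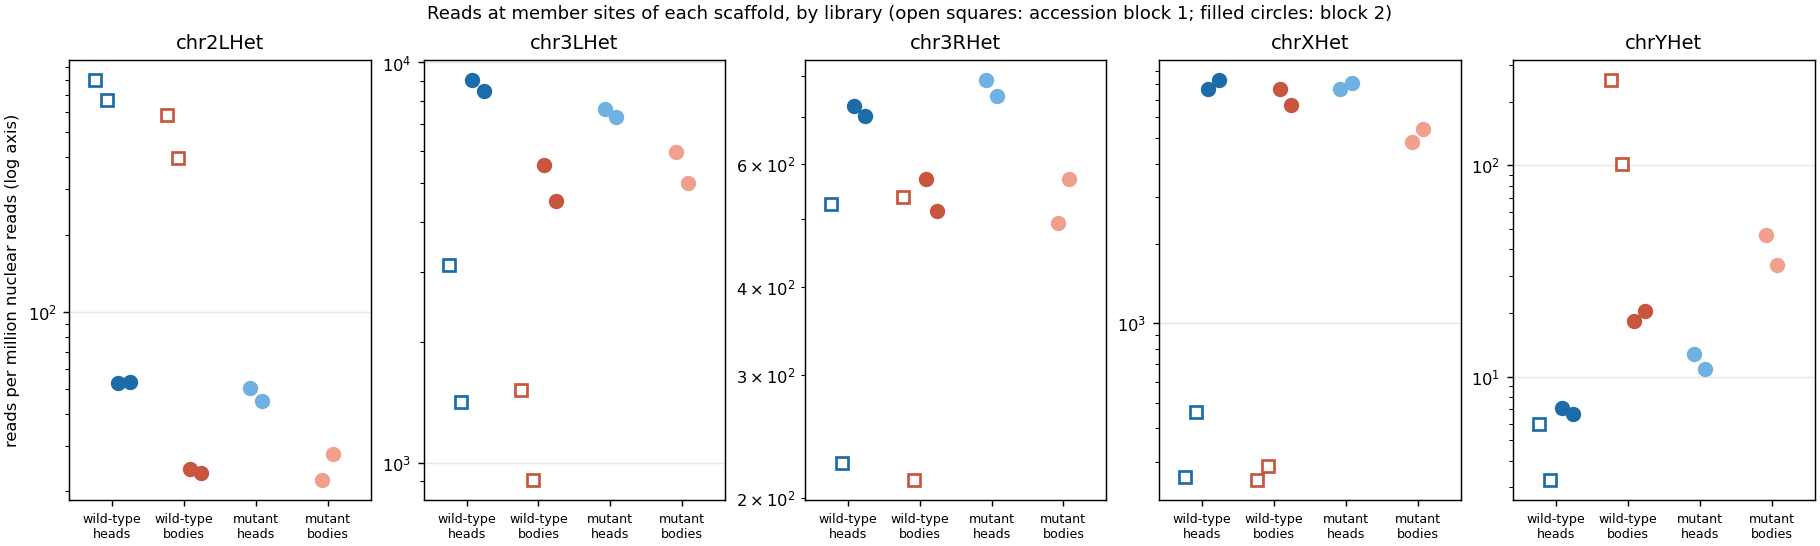
Reads at the member sites of each scaffold in RPM, on a log axis of its own for each scaffold, with 1 mark per library by group (open squares, accession block 1; filled circles, block 2). Only on chrYHet do all 4 wild-type bodies, at 18.3 to 253, lie above all 4 wild-type heads, at 3.24 to 7.12.

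Site by site, wild-type heads and bodies were compared with edgeR's quasi-likelihood test over all nuclear sites, with the accession block as a term, and a site was called at a Benjamini-Hochberg adjusted p under 0.05. Only 74 of the 501 members passed the filter on low counts, so the comparison speaks for the well-read members. Of these, 27 were called, 36.5%, and the share over all 14046 sites tested was 42.6%. Of the 27, 18 were higher in heads and 9 lower, where all sites gave 17.9% higher and 24.6% lower. Median log2 difference (heads minus bodies) was 0.18 over the members tested and 0.12 over all sites. By scaffold, 2 of 4 tested were called on chr2LHet (both higher in heads), 10 of 25 on chr3LHet (8 higher, 2 lower), 5 of 17 on chr3RHet (2 higher, 3 lower), 7 of 25 on chrXHet (6 higher, 1 lower) and all 3 on chrYHet (lower).

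All 27 called members had the same direction of the mean in each accession block taken alone. Fitted alone, block 1 called 6 of the 27 in that direction and block 2 called 23. These same libraries made the 27 calls, so the agreement was largely fixed by the choice of sites and gives no support. The mutant libraries, which the wild-type comparison did not use, gave a check. In them 25 of the 27 had the same direction, and 24 of the 27 had no overlap between the 2 heads and the 2 bodies. Over all nuclear sites called in wild type, 92.9% had that direction without overlap in the mutant. The 2 that did not keep the direction were chr2LHet 35194 and chr3LHet 32319, the second of which had no mutant reads at all. Leaving out wild-type head replicate 2 raised the count of called members from 27 to 41 of 90 tested, beside 7684 of all 16487 sites tested.

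**Figure D3:**
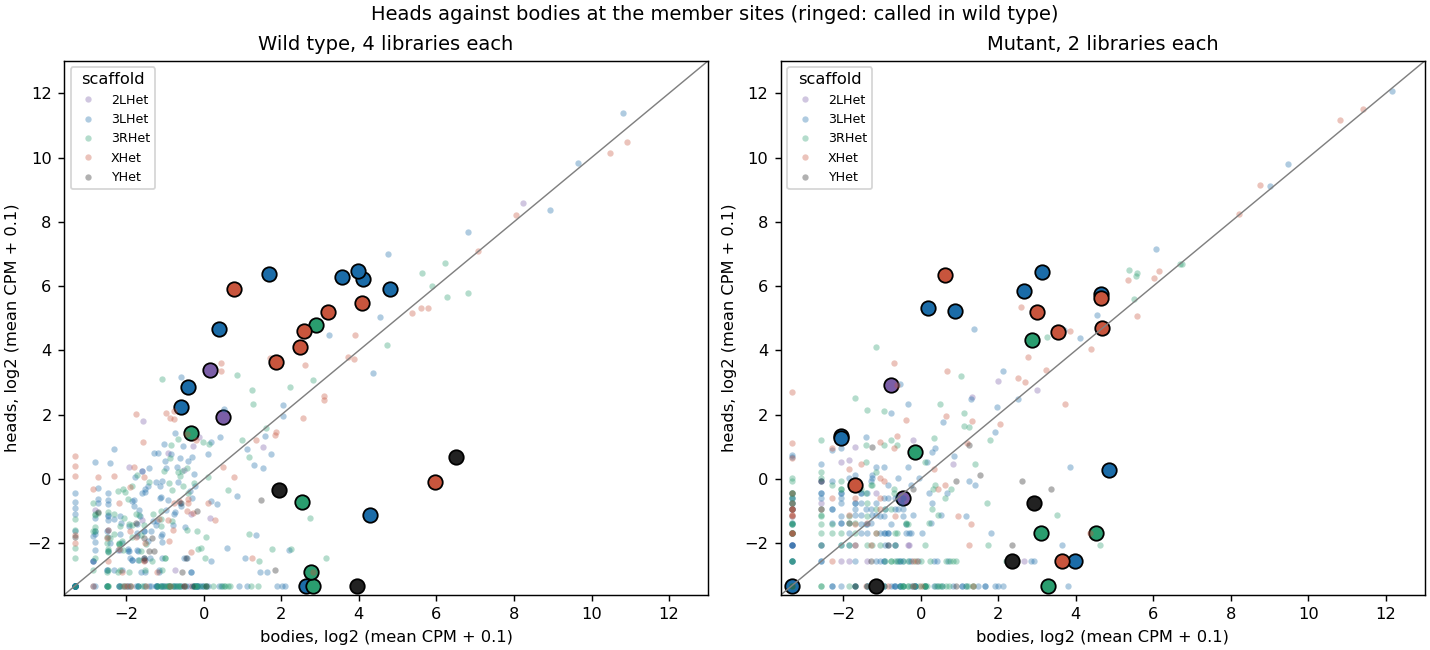
Mean level of each of the 501 members in heads (vertical) against bodies (horizontal), as log2 of TMM-scaled CPM plus 0.1, in the 4 and 4 wild-type libraries (left) and the 2 and 2 mutant libraries (right). Ringed points are the 27 members called in wild type, and 25 of them lie on the same side of the diagonal in the mutant.

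Most Y sites had a higher mean in bodies. Of the 20, 17 had a higher mean in wild-type bodies than heads, 16 in mutant bodies than mutant heads, and 15 in both genotypes. Over all 501 members, 239 had a higher mean in mutant bodies than mutant heads. Within wild-type block 2, 15 Y sites had a higher mean in bodies and 5 in heads, against 258 and 211 of all members. Within block 1 these were 13 and 1, against 179 and 163, and 2 Y sites had opposite directions in the blocks. Of the Y sites, 4 had no read in wild-type heads and 3 had none in any head library. The second share, 15%, was near the 14.8% of all members and 11.7% of other nuclear sites. Within block 1, 8 Y sites (40%) had body reads and no head read, against 25.5% of members and 22.1% of other sites. Within block 2 there were 5 (25%), against 16.4% and 13.8%. These shares were not tested. Only 3 Y sites passed the filter on low counts, which they did mainly through their body reads, so their calls say nothing of the other 17. Beside these values stand the male germline and accessory gland sums, also higher in bodies in every library, whose part in the result was not tested. In dissected parts, fewer cells of a type and less RNA per cell cannot be told apart.

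The site at 292038 on the plus strand (chrYHet:291957-292042) had no read in wild-type heads and stood at 17.8, 36.7, 3.48 and 3.37 CPM (reads scaled to 1000000 after TMM normalization) in wild-type bodies. All 4 bodies were thus above all heads, and the heads were at least 93.2-fold lower, counting 3 reads over the group as the limit that 0 reads allow (edgeR quasi-likelihood test, adjusted p = 0.000607). Mutant heads had 0 and 0.141 CPM and mutant bodies 8.71 and 1.40. The site at 206326 on the plus strand (chrYHet:206309-206347) was at 2.00, 0, 0.428 and 0.321 CPM in wild-type heads and 4.41, 3.83, 3.13 and 3.53 in bodies. Here too the groups did not overlap (log2 difference −2.46, SE 0.56; edgeR adjusted p = 0.00645), and mutant bodies, at 5.95 and 9.08, were above mutant heads, at 0.429 and 0.563.

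The most-read Y site, at 341370 on the minus strand (chrYHet:341366-341388), held 1651 reads, 56.6% of the Y reads of members. Nearly all came from wild-type bodies 1 and 2, at 307 and 53.1 CPM. Wild-type bodies 3 and 4 were at 0.348 and 0.460, and wild-type heads at 3.00, 3.04, 0 and 0. The tissues overlapped across blocks, while the call (log2 difference −5.65, SE 0.76; edgeR adjusted p = 0.000372) came with the block as a term. In the mutant it was at 0 in both heads and at 0.425 and 0.279 CPM in bodies. A further pair of Y sites was too thinly read for the tissue test. The site at 148271 (plus strand) was at 0, 0, 0 and 0.161 CPM in wild-type heads and 1.40, 0, 5.91 and 6.44 in bodies. The site at 297814 (minus strand) was at 15.5 and 4.75 CPM in mutant bodies, above 2.09 and 1.69 in wild-type bodies of block 2.

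Outside the Y, sites with no read in wild-type heads were found on both arms of chromosome 3. Those sites passed the filter on low counts through body reads alone, and their calls carry that limit. The site at 916633 on the plus strand of chr3LHet (chr3LHet:916632-916645) had no read in wild-type heads and 8.41, 7.67, 3.82 and 4.75 CPM in bodies, at least 37.4-fold apart (edgeR adjusted p = 0.000346). Mutant bodies reached 21.0 and 10.3 CPM, against 0 and 0.141 in mutant heads. The site at 1852849 on the plus strand of chr3RHet (chr3RHet:1852846-1852900) had no read in wild-type heads and 3.61, 14.2, 4.69 and 5.06 CPM in bodies, at least 41.9-fold apart (edgeR adjusted p = 0.00277). Its mutant bodies, at 36.1 and 10.1 CPM, were again far above the mutant heads, at 0 and 0.422. The site at 2101988 on the plus strand of chr3RHet, a single position, was steady over bodies, at 7.01, 7.12, 5.91 and 6.59 CPM, with 1 read in the 4 heads together (log2 difference −6.35, SE 0.58; edgeR adjusted p = 0.000119).

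Body-biased sites with some head reads included 1135556 on the minus strand of chr3LHet (chr3LHet:1135512-1135571). It stood at 10.6, 15.9, 27.6 and 23.9 CPM in wild-type bodies and at most 1.01 in heads (log2 difference −6.02, SE 0.72; edgeR adjusted p = 0.000227), with 30.6 and 27.7 CPM in mutant bodies. On chrXHet, the site at 26509 on the plus strand (chrXHet:26469-26509) was at 191, 41.1, 6.95 and 8.74 CPM in bodies and 1.67, 1.52, 0.143 and 0 in heads (log2 difference −6.12, SE 0.67; edgeR adjusted p = 0.000161). Both tissues were lower in block 2 than in block 1, and the tissues did not overlap. This site and 1135556 passed the filter on low counts through their body reads, and their calls carry that limit.

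Head-biased sites were led by chr3LHet. The site at 722415 on the minus strand (chr3LHet:722376-722445) stood at 126, 69.3, 68.6 and 66.0 CPM in wild-type heads and 5.41, 6.02, 0.174 and 0.767 in bodies (log2 difference 5.40, SE 0.73; edgeR adjusted p = 0.000394). Heads and bodies were far apart in the mutant too, at 38.0 and 36.5 against 2.55 and 0.978 CPM. The site at 241371 on the plus strand (chr3LHet:241325-241377) was at 13, 3.54, 39.1 and 44.6 CPM in heads and 0.601, 0.548, 1.74 and 1.99 in bodies (log2 difference 4.24, SE 0.49; edgeR adjusted p = 0.000204). The site at 1181139 on the minus strand (chr3LHet:1181114-1181159), the fifth most read of its scaffold, was at 125, 60.7, 94.3 and 75.1 CPM in heads and 17.8, 17.5, 12.9 and 14.7 in bodies (log2 difference 2.51, SE 0.32; edgeR adjusted p = 0.000317). None of these 3 overlapped between the tissues. The sites at 722415 and 241371 passed the filter on low counts mainly through their head reads, and their calls carry that limit.

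Smaller head-biased sites without overlap were 1570358 (minus strand, log2 difference 3.92, SE 0.58) and 2265522 (plus strand, 3.39, SE 0.57) on chr3LHet, at edgeR adjusted p-values of 0.000606 and 0.00119. On chr2LHet the site at 166905 on the minus strand (chr2LHet:166904-166944) was at 6.34, 3.04, 17.3 and 15.2 CPM in heads and 1.60, 0, 1.22 and 1.23 in bodies (log2 difference 3.11, SE 0.58; edgeR adjusted p = 0.00214). It kept that order in the mutant, at 7.87 and 7.18 against 0 and 0.978 CPM. The sites at 1570358, 2265522 and 166905 passed the filter on low counts through their head reads, and their calls carry that limit. On chrXHet, 6 sites were called higher in heads, and 3 of them, at 63775, 64351 and 64546 on the minus strand, lie within 1 kb of each other. The site at 64351 (chrXHet:64334-64360) was at 44.0, 18.7, 38.9 and 43.2 CPM in heads and 11.8, 8.76, 10.6 and 5.52 in bodies, without overlap (log2 difference 2.00, SE 0.40; edgeR adjusted p = 0.00322).

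The choice between neighbouring sites could be followed in 14 pairs of member sites, each the 2 most-read sites of a chain with gaps up to 1000 nt. Heads and bodies differed in 1 of the 14, where 18.1% of 4178 pairs over the whole nuclear table were called, 15.5% toward the distal and 2.61% toward the proximal site. That pair lies on the plus strand of chr3RHet, at 2446946 and 2448097, 1151 nt apart. Heads 1, 3 and 4 used the distal site for 100%, 99.2% and 100% of 5, 127 and 90 reads, and bodies 3 and 4 for 75% and 60% of only 8 and 5 reads. The log2 difference in the distal to proximal ratio was 6.30 (SE 1.46; edgeR adjusted p = 0.0250), and the other 3 wild-type libraries had no read at the pair. In the mutant, both heads were at 100%, and the bodies were at 0% of 12 reads and 22.7% of 22 reads. The call was lost without wild-type head replicate 3 or 4, or without wild-type body replicate 3 or 4, where 0 pairs were called. With a replicate block, or without wild-type head replicate 2 or body replicate 1, 2 member pairs were called, beside 1473, 889 and 754 of all 4178 pairs.

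A better-read pair lies on the minus strand of chrXHet, at 64351 (proximal) and 63775 (distal), 576 nt apart. The distal share was 59.3%, 2.63%, 70.4% and 65.3% in wild-type heads 1 to 4 and 27.2%, 0%, 14.1% and 5.26% in bodies. Head replicate 2 lay among the bodies, and the pair was not called (log2 difference 2.93, SE 1.26; edgeR adjusted p = 0.156). Mutant heads, at 66.2% and 71.3%, stood apart from mutant bodies, at 20% and 10.6%. No member pair was called between genotypes in heads or in bodies (edgeR), where 2.42% and 3.25% of all pairs were called. Those called pairs moved toward the distal site at 1.2% in heads and 1.48% in bodies, and toward the proximal site at 1.22% and 1.77%, and 0 and 1 of the 14 had an unadjusted p under 0.05. Without mutant body replicate 2, which leaves 1 mutant body, more pairs were called in bodies, among members and over all pairs.

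Mutant and wild-type libraries were compared within block 2, so that no difference between blocks enters. In heads 6 of 155 members tested were called, 3.87%, where 3.13% of all 20954 sites were (edgeR quasi-likelihood test). In bodies 8 of 155 were called, 5.16%, where 5.01% of all sites were. Both shares lie close to the background. In heads 4 rose and 2 fell in the mutant, where 1.27% of all sites rose and 1.86% fell. In bodies 6 rose and 2 fell, where 2.19% of all sites rose and 2.82% fell. Median log2 difference (mutant minus wild type) was 0.16 in heads and 0.02 in bodies over the members tested, and 0.05 and −0.02 over all sites. Only 1 member was called in both tissues. No member was called for a difference in genotype effect between tissues (edgeR), where 0.00477% of all sites were. An unadjusted p under 0.05 was found for 9 members, beside 1149 of all 20954 sites. DESeq2 called 1 member, beside 29 sites.

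Single libraries weighed on these counts. Each fit without a library leaves 1 library in a group. In heads, whichever library was left out, fewer members were called, and fewer of all nuclear sites. In bodies, fewer of both were called without wild-type body replicate 3 or 4. Without mutant body replicate 1, fewer members were called but not fewer sites. Without mutant body replicate 2, more of both were called, in bodies and for the interaction. The mutant bodies differed between themselves: of 67 members above 5 CPM in either, 8 were at least 4-fold apart (CPM plus 0.5), against 0 of 60 in mutant heads. On chr3LHet, mutant bodies 1 and 2 were at 156 and 1262 CPM at 460151 and at 11.9 and 123 CPM at 411070, and at 6630 and 2504 CPM at 2398987. Mutant body 1 also had 4.50% mitochondrial reads, against 22.0% in mutant body 2. When all 12 libraries were fitted with a replicate block, 72 of 182 members tested were called in heads and 79 in bodies. Over all 23450 sites tested, 6853 and 7414 were. These counts also hold the difference between blocks.

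Some called members had no read in any mutant library. They passed the filter on low counts through wild-type reads alone, and their calls carry that limit. The site at 32319 on the minus strand of chr3LHet (chr3LHet:32301-32345) held 1041 wild-type reads and 0 mutant reads. It stood at 60.4, 207, 20.1 and 22.5 CPM in wild-type heads 1 to 4 and at 21.4, 22.5, 1.04 and 2.30 in wild-type bodies, so all 8 wild-type libraries read it. Mutant heads were at least 100.1-fold lower than the wild-type heads of block 2 (edgeR adjusted p = 0.00526), and mutant bodies at least 6.61-fold lower (edgeR adjusted p = 0.0377). The head call held without any 1 of the 4 head libraries. The site at 1091270 on the plus strand of chr3LHet also had no mutant read. It was at 2.43 and 2.76 CPM in wild-type bodies 3 and 4, at 2.80 and 0 in bodies 1 and 2, and at 0, 0, 0 and 0.321 in heads. Mutant bodies were at least 10.3-fold lower (edgeR adjusted p = 0.0377; 0.0667 with all 12 libraries and a replicate block).

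The opposite pattern, sites with no wild-type read at all, was found 3 times among the called members. These passed the filter on low counts through mutant reads alone, and their calls carry that limit. The site at 37356 on the minus strand of chr2LHet (chr2LHet:37356-37361) had 39 reads, all mutant, with 2.00 and 2.39 CPM in heads and 1.27 and 0.279 in bodies. Mutant heads were at least 9.70-fold higher than wild-type heads of block 2 (edgeR adjusted p = 0.0496; 0.0543 with all 12 libraries and a replicate block). The sites at 1555765 (chr3LHet:1555747-1555788) and 908423 (chr3LHet:908369-908427), on the plus strand of chr3LHet, were read in mutant bodies alone. The first was at 3.18 and 4.61 CPM, at least 16.0-fold higher (edgeR adjusted p = 0.0261), and the second at 2.12 and 3.21 CPM, at least 10.9-fold higher (edgeR adjusted p = 0.0346). Over all members, 30 (5.99%) had mutant reads and no wild-type read in block 2, and 8 (1.60%) had the reverse, against 2.80% and 3.31% of other nuclear sites. These shares were not tested.

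Of the remaining sites that rose in mutant heads, 1665461 on the minus strand of chr3LHet (chr3LHet:1665460-1665479) had the highest level. It was at 26.2 and 24.2 CPM in mutant heads and 4.46 and 0.559 in mutant bodies, and at 0 to 0.460 CPM in all 8 wild-type libraries (heads, log2 difference 6.68, SE 1.06; edgeR adjusted p = 0.0133). On chr3RHet, the site at 153654 (plus strand) went from 0 in all wild-type heads to 5.58 and 5.77 CPM, at least 25.0-fold higher (edgeR adjusted p = 0.0151). The site at 160570 on the same strand went from 0 to 3.29 and 5.21 CPM, at least 18.7-fold higher (edgeR adjusted p = 0.0122). Both had reads in wild-type bodies, at up to 1.64 and 1.23 CPM. Both passed the filter on low counts through their mutant head reads, as did 1665461, and these calls carry that limit. The second site that fell in mutant heads, 132721 on the plus strand of chrXHet, was at 5.58 and 4.36 CPM against 40.5 and 48.2 in wild-type heads 3 and 4 (log2 difference −3.13, SE 0.60; edgeR adjusted p = 0.0271). Wild-type heads 1 and 2 were at 0.33 and 0 CPM there, below the mutant, and with all 12 libraries and a replicate block the difference was 4.35.

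In mutant bodies, the site at 654210 on the plus strand of chr3RHet (chr3RHet:654208-654212) was at 36.1 and 12.7 CPM, against 0.601, 0, 0.348 and 0.767 in wild-type bodies and at most 0.281 in any head (log2 difference 5.37, SE 0.84; edgeR adjusted p = 0.0162). The other risers without overlap were 1871435 on chr3LHet (minus strand, 3.61, SE 0.77), 672063 on chr3RHet (minus strand, 3.26, SE 0.78) and 302233 on chrYHet (minus strand, 4.12, SE 0.98), all log2 differences with edgeR adjusted p-values of 0.0455, 0.0478 and 0.0463. Like 654210, these risers passed the filter on low counts through mutant body reads, and all these calls carry that limit. The Y site stood at 9.13 and 2.93 CPM in mutant bodies, and at 1.40, 1.10, 0 and 0.613 in wild-type bodies. Male germline sums in the same mutant bodies were 42.8 and 68.3 RPM, against 47.0 and 64.9 in wild-type bodies 3 and 4, and the 2 genotypes overlapped. These calls were lost without wild-type body replicate 3 or 4.

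**Figure D4:**
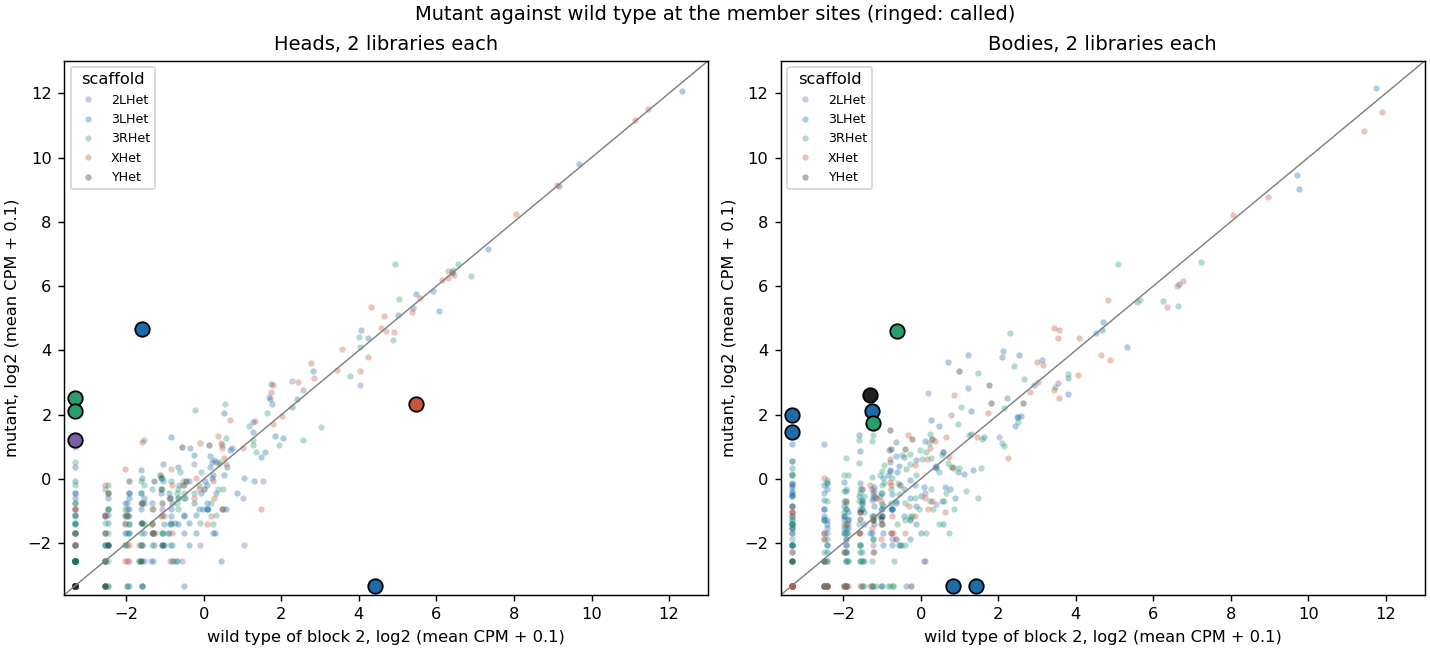
Mean level of each member in the mutant (vertical) against wild-type replicates 3 and 4 (horizontal), as log2 of TMM-scaled CPM plus 0.1, in heads (left) and bodies (right), 2 libraries a group. Ringed points are the 6 members called in heads and the 8 called in bodies. Those on the lower or left edge had no read in the 2 libraries of 1 group in that panel.

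The widest differences at these scaffolds were between the accession blocks of the same wild-type strain, a comparison chosen after the data were seen. With tissue as a term, 46 of 74 members were called (edgeR quasi-likelihood test), 62.2%, where 48.6% of all sites were. Of them 31 were higher in block 2 and 15 lower, where all sites gave 24.2% and 24.4%. On chrXHet 21 of 25 members tested were called, with a median log2 difference (block 2 minus block 1) of 5.63, against 0.02 over all sites. The other scaffolds gave 11 of 25 on chr3LHet, 10 of 17 on chr3RHet, 2 of 4 on chr2LHet and 2 of 3 on chrYHet. Over all members, 143 (28.5%) had wild-type reads in block 2 and none in block 1, and 16 (3.19%) the reverse, against 17.5% and 1.88% of other nuclear sites. Block 2 also held more wild-type reads.

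The most-read site of chr2LHet, at 167978 on the minus strand (chr2LHet:167968-168025), held 84.7% of the scaffold's member reads. It stood at 907 and 609 CPM in wild-type heads 1 and 2, at 777 and 395 in bodies 1 and 2, and at 5.62 to 11.6 in the other 8 libraries, mutants included (wild-type log2 difference −6.45, SE 0.51; edgeR adjusted p = 0.000194). The most-read site of chr3LHet, at 2398987 on the plus strand (chr3LHet:2398760-2399096), held 64.0% of that scaffold's reads and ran the other way. It was at 5564 and 4751 CPM in wild-type heads 3 and 4 and 3747 and 3148 in bodies 3 and 4, against 423 and 3.54 in heads 1 and 2 and 313 and 2.74 in bodies 1 and 2 (log2 difference 4.46, SE 1.47; edgeR adjusted p = 0.0339). Within block 1 replicate 1 was far above replicate 2 in both tissues.

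That sharing of a replicate number recurred. Between wild-type replicates 1 and 2, 12 members differed at least 8-fold in heads and 10 in bodies (TMM-scaled CPM plus 0.5), and 6 did so in both tissues, all 6 in the same direction. Other nuclear sites did so in both tissues at 1.97%, against 1.20% of members. Between replicates 3 and 4 no member did so in either tissue. The site at 600641 on the plus strand of chr3LHet was at 501 CPM in head 1 and 105 in body 1, and at 0 in head 2 and body 2. In the other direction, 184198 on the plus strand of chrXHet was at 80.4 and 64.6 CPM in head 2 and body 2, and at 1.33 and 0.601 in head 1 and body 1. Such sites limit any tissue comparison over block 1 to values within a number.

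Almost all chrXHet reads came from one stretch of its plus strand, chrXHet:184030-203047, a choice of bounds made after the data were seen. Its 19018 nt held 27 sites, 334736 reads (95.7% of the scaffold's member reads) and 86.1% of the scaffold's positions with reads. In block 2 it took 4709 to 7871 RPM, and in block 1 it took 54.3 to 197. Within block 2 mutant bodies, at 4709 and 5310, were below wild-type bodies, at 7581 and 6575, while mutant heads, at 7279 and 7745, spanned the same range as wild-type heads, at 7260 and 7871. The other 55 sites of chrXHet gave another picture. They summed to 204, 265, 418 and 437 RPM in wild-type heads and 201, 107, 85.3 and 120.1 in bodies, heads above bodies in all 4 libraries, and mutant heads, at 391 and 385, were above mutant bodies, at 152 and 109.6.

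The 2 leading sites of the stretch were unlike a usual poly(A) site. The site at 195061 (chrXHet:193983-195977) was 1995 nt wide and the site at 190407 (chrXHet:190240-192064) 1825 nt wide, with reads at 76.4% and 79.5% of their nucleotides. Their peaks, 4654 nt apart, held 8.75% and 6.68% of their reads. Over the 8 libraries of block 2 the ratio of their CPM was nearly fixed, from 1.24 to 1.56, while in block 1 it ran from 0.404 to 2.29 at far fewer reads. The first stood at 31.3 and 36.4 CPM in heads 1 and 2 and 2785 and 2826 in heads 3 and 4, and at 30.7, 31.2, 4003 and 3669 in bodies 1 to 4 (block 2 minus block 1, log2 6.52, SE 0.41; edgeR adjusted p = 0.00018). Mutant heads were at 2721 and 3159 CPM, around the wild-type heads of the block, and mutant bodies, at 2858 and 2589, were below both wild-type bodies of the block (the site was called in neither tissue).

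**Figure D5:**
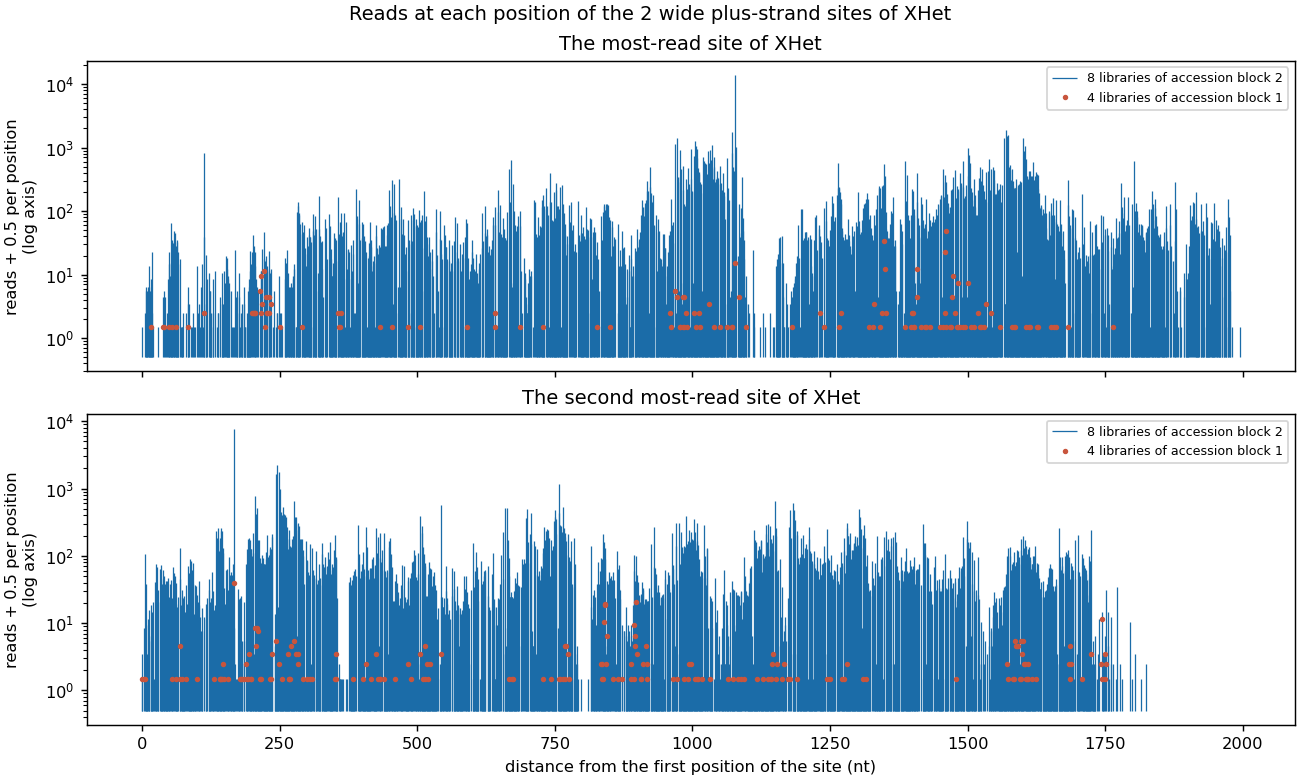
Reads plus 0.5 at each position of the 2 most-read chrXHet sites (log axis), against the distance in nt from the first position of the site, pooled over the 8 libraries of block 2 (lines) and the 4 of block 1 (points). Positions with reads cover 76.4% and 79.5% of the nucleotides, and the highest position of each site holds 8.75% and 6.68% of its reads.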

How the data were processed

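Per the labels, the deposited values are counts of reads at each poly(A) position, by scaffold and strand, in 12 files of 1 library each; the authors had aligned reads with Bowtie2 to BDGP5, per the submitters' processing notes. The placement of reads from repeated copies and the filters on tails are unstated in the labels, and counts at repeats are uncertain.

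Positions were joined within 24 nt into sites of at least 10 pooled reads. All nuclear sites were tested together with edgeR 4.0.16 in R 4.3.3 (TMM, filterByExpr, quasi-likelihood test, Benjamini-Hochberg at 0.05), after tests on simulated data. The tissue fit had the accession block as a term and no term for the replicate number, and genotype fits used the 8 libraries of block 2. SE is the log2 difference over the square root of F. Scaffold totals were tested by exact permutation with a pseudocount of 0.5 RPM. Same-numbered wild-type heads and bodies deviated together from their group means (r = 0.744, 0.752, 0.762 and 0.719 over 23450 sites). Heads and bodies of different numbers gave 0.157 and 0.202 in block 1, but 0.738 and 0.711 in block 2. From means of group and block, same numbers gave r = 0.671 in block 1 and 0.0913 in block 2. Pairing by number thus showed in block 1 and hardly in block 2. The numbers were taken as pairs only in the replicate block and sign-flip alternatives. Markers used 2L positions, of which 61.7% of 3907 lay within 10 nt of an annotated end.

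Named sites were the 5 most read per scaffold, up to 6 called members in each direction without overlap, and called pairs. The sites at 35194, 63775, 64351, 64546 and 600641 and the second pair were added after their values were seen. Members and lists were chosen with earlier results of these data known. Alternatives included DESeq2 1.42.0, other joining distances and filters, and leaving out each library.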

Additional observations from a re-analysis of the deposited data

Results flagged for a closer look

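Within the groups of 4 wild-type libraries, 12 values stood apart from the other 3 by Dixon's test, which chance does in about 1 in 20 groups. On chr3RHet, 66107 (plus strand) was at 118 CPM in head replicate 1 and 348 in body replicate 1, against 28.4 to 40.0 and 29.5 to 38.8 in the others, so the same number stood apart in both tissues. At 1806526 (minus strand), head replicate 2 was at 0 CPM against 82.8 to 88.0. At 1852849, body replicate 2 was at 14.2 CPM against 3.61 to 5.06. At 2101988, head replicate 3 was at 0.143 CPM and the other heads at 0. The chr3RHet total of body replicate 2 was 212 RPM against 514 to 571. On chr3LHet, 722415 was at 126 CPM in head replicate 1 against 66.0 to 69.3. At 1091270, head replicate 4 was at 0.321 CPM against 0, and body replicate 2 at 0 against 2.43 to 2.80. At 1665461, body replicate 4 was at 0.460 CPM against 0. On chr2LHet, 35194 was at 2.20 CPM in body replicate 1 against 0.920 to 1.10. On chrYHet, 148271 was at 0.161 CPM in head replicate 4 and at 0 in the other heads. The values of 0.143, 0.161, 0.321 and 0.460 rest on 1 to 3 reads. With the other 3 libraries at 0, any read is flagged by this rule. The number of groups screened is not given here, so the 12 cannot be set against chance.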

How the results depend on the processing

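The 27 of 74 members called between tissues, beside 5977 of all 14046 sites, became 129 of 485 with no low-count filter, beside 14577 of 45338. With no accession block term 15 of 74 were called, beside 3721 of 14046. With the replicate block 36 of 74 were, beside 7954 of 14046. Block 1 alone gave 9 of 53, beside 2075 of 11033, and block 2 alone 65 of 108, beside 10049 of 17821. Without single libraries 27 to 41 members were called, and 5121 to 7684 of all sites. Mutant head calls (6) became 72 with all 12 libraries and a replicate block, 26 with that tissue fitted alone and 1 to 3 without single libraries. Mutant body calls (8) became 79, 4 and 0 to 51 under the same settings. The interaction count of 0 became 1 with DESeq2 and 0 to 15 without single libraries. The tissue pair count of 1 of 14, beside 756 of 4178, became 2 of 22 with a mean of at least 10 reads, beside 786 of 5262. With a replicate block it was 2 of 14, beside 1473 of 4178. Without single libraries it was 0 to 2, beside 421 to 889 of all pairs. Mutant body pairs also rose without mutant body replicate 2. At the other settings run these counts over all members stayed within 1.5 times. The replicate block ended no call of a single site beyond those given above with it. With DESeq2 size factors the median over all sites moved from 0.12 to −0.05 (tissue) and from −0.02 to 0.14 (mutant bodies).

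Log2 scaffold totals changed sign for chr3LHet in mutant bodies without the most-read site (−0.54), for chr3RHet between tissues with TMM-scaled sizes (−0.080) and in mutant bodies with mitochondrial reads kept (0.10), with all positions (0.014) and without the most-read site (0.10), and for chrXHet with TMM-scaled sizes between tissues (−0.034) and in mutant heads (0.052). The chr2LHet tissue difference was 1.72 without its most-read site, now under an exact p of 0.05. The Y difference of −3.23 lost that threshold with the replicate block. It also lost it whichever wild-type head was left out (exact permutation p = 0.0857 each time), but not without a wild-type body. Without single libraries, tissue differences ran from −0.13 to 0.59 (chr3RHet), −0.56 to 1.15 (chrXHet) and −3.76 to −2.50 (chrYHet). Those in mutant bodies ran from −0.12 to 0.22 (chr2LHet), −0.016 to 0.28 (chr3LHet) and −0.13 to 0.075 (chr3RHet), and in mutant heads from −0.073 to 0.040 (chrXHet). Among single called sites, chrXHet 132721 in mutant heads reversed to 4.35 with all 12 libraries and a replicate block. No other site called changed sign. The filter on low counts kept 74 of 501 members between tissues and 155 between genotypes, and the comparisons speak for those alone. The cause of these changes was not tested.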
